A study of Mus musculus with 26 samples.

Results

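The sites described here are Onecut1 binding events of day 6 that lay in open chromatin on that day and had no Onecut1 event on day 5. They were chosen by measured values: an event of the day 6 Onecut1 list was taken where no event of the day 5 Onecut1 list lay within 100 bp and where a day 6 ATAC peak lay within 100 bp. Of the 63488 day 6 events, 5300 met both criteria (8.35%). They are called the new and open sites below. Absence on day 5 and openness on day 6 are therefore the choice itself and no finding.

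Onecut1, also known as Hnf6, binds DNA through a cut domain and a homeodomain and belongs to the Onecut family with Onecut2 and Onecut3. In the embryonic spinal cord Onecut factors are made by newborn neurons, motor neurons among them. Acetylation of lysine 27 of histone H3 (H3K27ac) marks active enhancers and promoters, and p300 is an acetyltransferase that places this mark. Isl1 is a LIM-homeodomain factor required to make motor neurons. Early on it works in a complex with Lhx3, and it remains in many motor neurons after Lhx3 has gone.

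Mouse embryonic stem (ES) cells were differentiated in culture into spinal motor neurons, and the title of the series names changing enhancers of postmitotic motor neurons as its subject. All libraries of days 5 and 6 came from the iCre line, which on day 2 received retinoic acid at 1 uM with the Hedgehog agonist SAG at 0.25 uM and 5 uM DAPT, an inhibitor of Notch signalling, on day 4 (day 5 cells) or on days 4 and 5 (day 6 cells). ATAC and H3K27ac of day 4 came from the same line with retinoic acid and SAG only, ATAC of day 2 from cells with none of these agents, and DNase-seq of day 0 from ES cells of the HBG3 line. Ngn2 and Lhx3 were mapped on day 4 in lines that carry a transgene induced with 3 ug/ml doxycycline, the Ngn2 line on day 3 with retinoic acid and SAG, and the NIL line on day 2 with retinoic acid and no SAG named. The labels also name Ainv15 for every sample.

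Before the results, several libraries need a remark. The file of the library labelled Lhx3 mentions Isl1 in its name, so it is called the library labelled Lhx3. For day 4 H3K27ac replicate 2 the file name has HBG3 although the label gives iCre. The file names of Onecut1 day 6 and Isl1 day 6 replicate 1 share a mark that Onecut1 day 5 and Isl1 day 6 replicate 2 do not carry, so Isl1 is given for each library on its own. The labels do not say what this mark stands for. Isl1 had 2 libraries on each day and day 4 H3K27ac had 2, and each other map had 1 library a day. With 1 library a day there is no replicate error between days, and depth is unknown, as none of the sources used here gives reads per library. Intervals after shares are exact (Clopper-Pearson) 95% intervals. They cover counting error only and treat sites as independent, although some share an ATAC peak.

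The RNA of the same days, with days 0 and 4 from the HBG3 line, showed the markers of motor neurons. Isl1 stood at 0.0985, 3.68, 88.0 and 116 FPKM on days 0, 4, 5 and 6, and Chat, which makes acetylcholine, at 0.0096, 0.596, 8.02 and 13.2 FPKM. The homeobox gene Mnx1 was at 0.549, 3.95, 36.5 and 22.0 FPKM on these days. The progenitor markers Olig2, Pax6, Nkx6-1 and Sox2 were at 17.3, 3.42, 17.5 and 13.0 FPKM on day 5. On day 6 they were at 0.95, 0.321, 7.78 and 2.25 FPKM. The stem cell genes Nanog and Pou5f1 were at 0.042 and 0.296 FPKM on day 4 and lower after it. Of the 6 interneuron markers, 5 were at 0.256 FPKM or less on day 6, and Sim1 was at 3.24 FPKM. Among glial markers, Gfap, Aqp4 and S100b were at or near 0 FPKM on day 6, while Mbp was at 9.90 FPKM. Onecut1 RNA was 0.0586, 1.99, 12.5 and 14.0 FPKM on days 0, 4, 5 and 6, and Onecut2 followed the same order with 0.0812, 1.52, 15.6 and 18.4 FPKM. Onecut3 stayed low, at 0.0137, 0.160, 1.15 and 1.05 FPKM. Ep300, which encodes p300, lay between 10.6 and 13.7 FPKM on all 4 days, and Lhx3 was at 2.09, 24.1 and 3.90 FPKM on days 4, 5 and 6.

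The day 6 Onecut1 list was longer than that of day 5, with 63488 against 23245 events, and this difference fed the choice of sites. Of all day 6 events, 74.6% were new by the rule and 14.8% were open. The remaining events fall into 3 other classes: 42077 were new and not open, 4127 were on both days and open, and 11984 were on both days and not open. Among the strongest 23245 day 6 events, as many as the day 5 list holds, 12658 were new (54.5%) and 3601 were new and open (15.5%), and the weakest of these had 21.0 reads. The new and open sites lay at 8.89% of the 52645 day 6 ATAC peaks.

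By median, new and open sites were stronger than day 6 events as a whole and weaker than open sites of both days. Each event carries the number of precipitated reads that the authors' event list assigns to it. The new and open sites had a median of 30.8 reads, with quartiles of 18 and 72.0 and a range of 6.2 to 685.4. Over all day 6 events the median was 16.0 reads, with quartiles of 11.0 and 29.0. New sites outside open chromatin had a median of 13.0 reads, open sites bound on both days 92.9, and closed sites bound on both days 24.0. At least 100 reads were assigned to 907 new and open sites (17.1%), against 1898 open sites of both days (46.0%) and 0.989% of new sites that were not open. The scaled control gave 0 reads at 4466 new and open sites (84.3%), against 93.9% of all day 6 events and 72.0% of open sites of both days. These values come from the libraries that made the choice, so they describe the sites and test nothing.

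**Figure D1:**
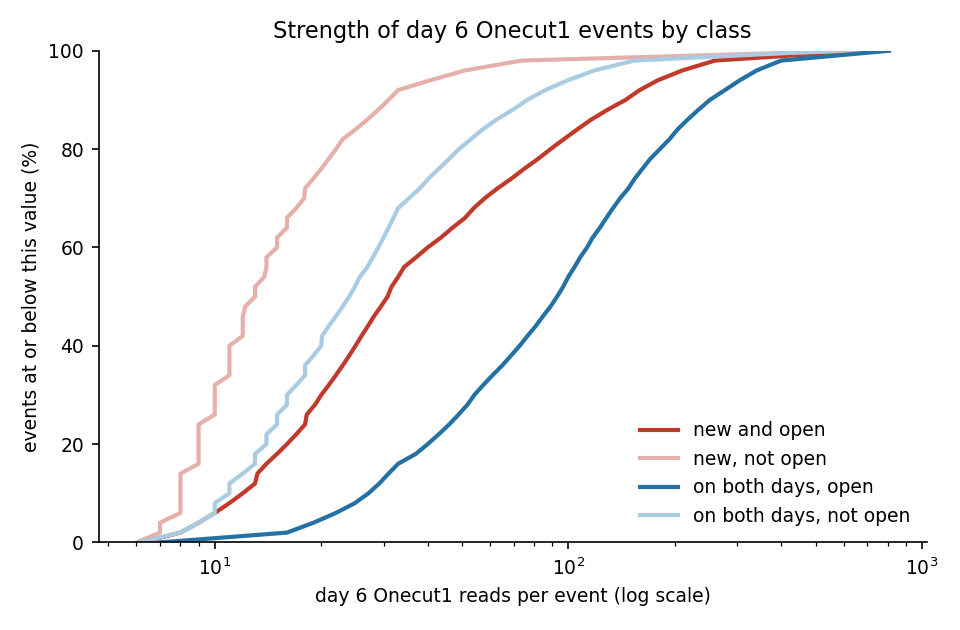
Cumulative share of day 6 Onecut1 events (vertical axis, percent) by precipitated reads per event (horizontal axis, log scale) for the 4 classes of events. The curve of the new and open sites, with its median at 30.8 reads, runs between that of new sites that were not open (13.0) and that of open sites of both days (92.9).

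The plot of cumulative reads shows that the classes overlap over most of their range. Most new and open sites were far from any day 5 event: 4878 of them (92.0%) had none within 1000 bp, and the median distance was 34976 bp. A smaller number lay close to one. A day 5 event lay 101 to 200 bp away from 185 sites (3.49%) and 201 to 500 bp away from 131 (2.47%). The share with a day 5 event within 500 bp was 9.59% among the 907 sites of 100 reads or more, 5.85% among those of 29 to under 100 reads and 4.71% among those under 29 reads.

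The strongest site of all lay at chromosome 3 position 16747367 (mm9, as are all positions here), with 685.4 Onecut1 reads and a control of 0. A day 5 Onecut1 event lay 292 bp away, ATAC peaks were there on days 2, 4 and 5, H3K27ac peaks lay within 100 bp on both day 6 and day 5, and a day 5 p300 event had 397.0 reads. The second, at chromosome 19 position 47104342 with 651.3 reads, stood 11180 bp from the nearest day 5 event, inside H3K27ac peaks of both days, and was open on day 5 but not on days 2 and 4. The third, at chromosome 2 position 123143526 with 646.0 reads, had a control of 47.2 reads and so a fold of 13.7. It had H3K27ac on day 6 at 98 bp and none on day 5 within 241139 bp.

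The next 5 sites by strength varied in the same ways. The site at chromosome 14 position 55711243 had 520.7 reads, an event of day 5 at 182 bp and ATAC on days 2, 4 and 5. The site at chromosome 2 position 4213137 had 508.0 reads, a day 5 event at 124 bp, H3K27ac on day 6 only and 35.8 Isl1 reads in day 6 replicate 1. The site at chromosome 8 position 94159041 had 506.0 reads, no ATAC peak on days 2, 4 or 5, 36.0 Isl1 reads in day 6 replicate 1 and its nearest day 6 H3K27ac peak at 109 bp, just past the 100 bp window. The sites at chromosome 4 position 56815570 and chromosome 3 position 66739387 had 469.0 and 466.3 reads, and 9.0 and 10.9 Isl1 reads in that same library. Of these 8 sites, 4 had a day 5 Onecut1 event between 124 and 292 bp away, none had a day 6 p300 event within 100 bp, and none had Isl1 in day 6 replicate 2.

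At the limits of the rule, outside chromosome 18, strength inside and outside overlapped. Just inside the distance limit, 19 sites had their nearest day 5 event at 101 to 110 bp, and just outside it 38 open day 6 events had theirs at 91 to 100 bp. The strongest just inside lay at chromosome 2 position 30627094 with 339.1 reads, and the strongest just outside at chromosome 14 position 22254183 with 348.0 reads. For the ATAC limit, 132 sites had their peak at 91 to 100 bp and 101 new events had theirs at 101 to 110 bp. The strongest of these had 208.2 reads just inside, at chromosome 9 position 41665236, and 290.2 reads just outside, at chromosome 19 position 31838095.

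Many of the new and open sites were already accessible before day 6. An ATAC peak lay within 100 bp on day 2 at 1145 of the 5300 sites (21.6%, 20.5 to 22.7), on day 4 at 1214 (22.9%, 21.8 to 24.1) and on day 5 at 2702 (51.0%, 49.6 to 52.3). On at least 1 of these days it was there at 2905 sites (54.8%, 53.5 to 56.2). Over all day 6 Onecut1 events the shares were 3.75% on day 2, 4.11% on day 4, 10.6% on day 5 and 12.5% on any of them. Those are low because most day 6 Onecut1 events had no ATAC peak on day 6 either, and openness on day 6 was a criterion for the new and open sites. DNase-seq peaks of ES cells lay at 84 sites (1.58%, 1.27 to 1.96), against 0.312% of all events.

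Open classes make the closer comparison, since each has a day 6 ATAC peak. Day 5 ATAC was less frequent at new and open sites (51.0%) than at open sites of both days (61.9%, 60.4 to 63.4). This held in the strongest quartile of day 6 Onecut1 reads (29 or more), with 49.9% (48.1 to 51.8) against 64.1% (62.5 to 65.6). In quartile 3 (16 to under 29 reads) the order turned, with 51.3% (48.7 to 53.9) against 46.5% (41.5 to 51.6) and overlapping intervals, and in quartile 2 (11 to under 16 reads) it was 53.3% (49.2 to 57.3) against 34.9% (23.3 to 48.0). On day 2 the order was the other way, with 21.6% of new and open sites and 11.1% (10.2 to 12.1) of open sites of both days. Day 6 ATAC peaks without any Onecut1 event, 44437 in all, had an ATAC peak on day 2 at 58.0%, on day 4 at 55.4% and on day 5 at 72.2%. On each of the 3 days the new and open sites had the lower share, and the intervals did not overlap (57.6 to 58.5 on day 2, 54.9 to 55.8 on day 4 and 71.8 to 72.6 on day 5 for the ATAC peaks). These peaks were measured from their centres, while an Onecut1 event may lie up to 100 bp from its peak. Among the 2876 new and open sites inside their ATAC peak the share with day 5 ATAC was 50.7% (48.9 to 52.5). The ATAC lists held 85989, 47839, 55131 and 52645 peaks on days 2, 4, 5 and 6.

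**Figure D2:**
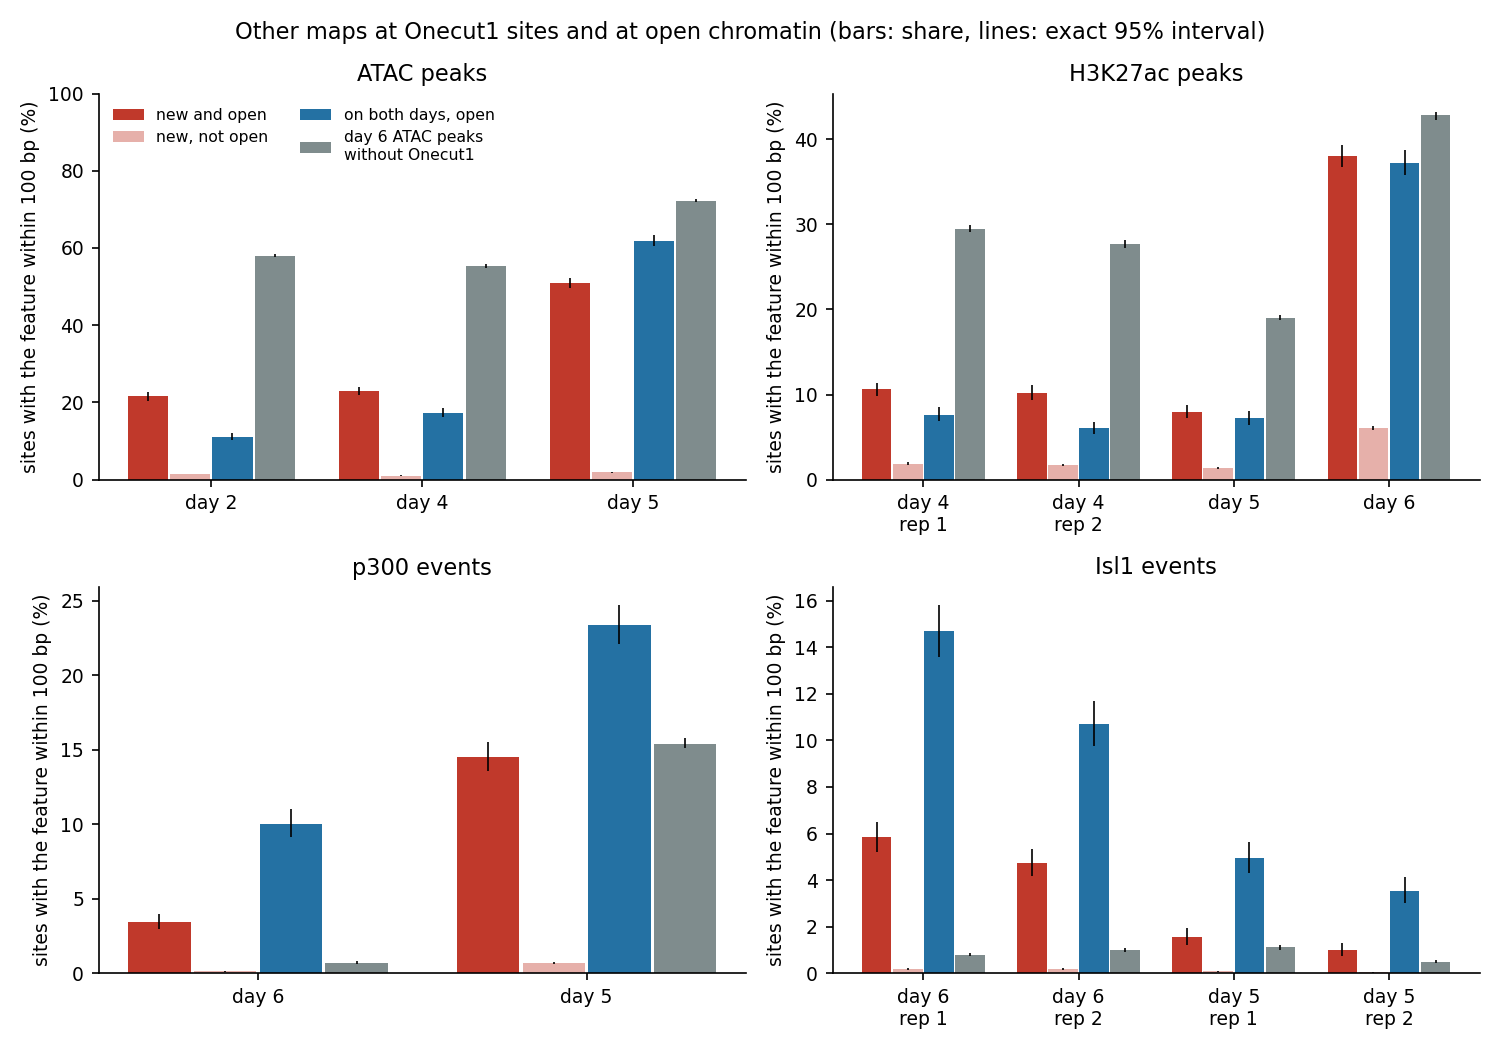
Share of sites with a feature within 100 bp (vertical axes, percent) for ATAC, H3K27ac, p300 and Isl1 by day and library, with bars for new and open sites, new sites that were not open, open sites of both days, and day 6 ATAC peaks without Onecut1. Lines are exact 95% intervals. Over all strengths day 6 H3K27ac lay at 38.0% of new and open sites and 37.2% of open sites of both days, while day 6 p300 (3.45%) and Isl1 were below that class.

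Days 2, 4 and 5 together give 8 histories of accessibility. No earlier ATAC peak lay at 2395 sites (45.2%), and 1406 sites (26.5%) had one on day 5 only. A further 822 sites (15.5%) had one on each of days 2, 4 and 5, and 284 (5.36%) on days 4 and 5. The other 4 histories held 190 sites (days 2 and 5), 95 (day 2 only), 70 (day 4 only) and 38 (days 2 and 4). At open sites of both days the share with no earlier peak was 35.5%, that with day 5 only 44.3%, and that with all 3 days 7.68%.

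The weaker new and open sites were the ones most often open early. Quartiles of Onecut1 reads were set over all day 6 events, at 11, 16 and 29 reads, and held 384, 614, 1465 and 2837 new and open sites from the weakest to the strongest. Day 2 ATAC lay at 42.4%, 31.4%, 27.2% and 13.8% of these. Day 5 ATAC changed little, with 54.2%, 53.3%, 51.3% and 49.9%. In the strongest quartile day 2 ATAC lay at 13.8% (12.5 to 15.1) of new and open sites and at 10.8% of the 3658 open sites of both days. In the quartile below it the shares were 27.2% (24.9 to 29.5) and 15.1%.

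H3K27ac was much more frequent on day 6 than on the days before. It lay within 100 bp at 561 sites (10.6%, 9.77 to 11.4) and 541 sites (10.2%, 9.41 to 11.1) in the 2 day 4 libraries, at 422 (7.96%, 7.25 to 8.72) on day 5 and at 2014 (38.0%, 36.7 to 39.3) on day 6. The shares over all day 6 Onecut1 events were 3.20% and 2.80% on day 4, 2.50% on day 5 and 11.1% on day 6. H3K27ac on day 6 but not on day 5 was found at 1610 sites (30.4%, 29.1 to 31.6), against 9.03% of all events. The opposite, day 5 without day 6, was found at 18 sites (0.340%), near the 0.386% of all events. A peak on both days lay at 404 sites (7.62%), against 2.11% of all events. No peak on either day was found at 3268 sites (61.7%), against 88.5% of all events.

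The day 6 H3K27ac list was itself longer, with 47275 peaks against 24525 on day 5. With the 24525 highest-scoring day 6 peaks only, an alternative chosen after seeing the data, 1578 sites had day 6 H3K27ac (29.8%, 28.5 to 31.0), still above the 7.96% of day 5. In the other open classes day 6 also exceeded day 5. Open sites of both days had H3K27ac at 37.2% on day 6 and 7.20% on day 5, and day 6 ATAC peaks without Onecut1 at 42.8% on day 6 and 19.0% on day 5. For H3K27ac of day 6 but not day 5, the shares were 30.4% at new and open sites, 30.5% (29.1 to 32.0) at open sites of both days and 24.8% at ATAC peaks without Onecut1. Over all strengths the intervals of the new and open sites and of the open sites of both days overlapped. Within quartiles of Onecut1 reads, day 6 H3K27ac within 100 bp was more frequent at new and open sites. It lay at 44.5% (42.6 to 46.3) of these and 39.4% (37.8 to 41.0) of the open sites of both days in the strongest quartile, and at 35.5% (33.0 to 38.0) and 22.5% (18.5 to 27) in quartile 3. In quartile 2 the shares were 26.1% (22.6 to 29.7) and 14.3% (6.75 to 25.4), with overlapping intervals. Strength within these quartiles was not matched, and other distances were not taken by quartile. At new sites that were not open, H3K27ac lay at 6.05% on day 6 and 1.39% on day 5.

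Day 6 H3K27ac lay over some of the sites and beside others. The event itself lay inside a day 6 peak at 21.0% of new and open sites, a peak edge lay within 50 bp at 29.3%, within 200 bp at 47.7% and within 1000 bp at 54.2%. For day 5 these shares were 3.21% inside a peak, 14.7% within 500 bp and 15.9% within 1000 bp. At open sites of both days the day 6 shares were 16.3% inside a peak, 37.2% within 100 bp and 49.1% within 200 bp. They were below those of new and open sites up to 100 bp and above them from 125 bp (41.7% against 41.2%). The curves of distance rise steeply to about 200 bp and are flat from 500 bp. There day 6 stood at 53.1% for new and open sites and 55.3% for open sites of both days. Peaks at the new and open sites were wide for their lists, with a median width of 747 bp on day 6 against 415 bp over that list, and 449 bp on day 5 against 336 bp over that list. Peaks at open sites of both days were wide as well, with medians of 835 bp on day 6 and 482 bp on day 5. The part of peak width in the shares was not tested. Scores of the peaks at new and open sites stood at a median percentile of 70.1 of the day 6 list and 73.4 of the day 5 list. For peaks at open sites of both days these percentiles were 70.1 and 69.1.

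**Figure D3:**
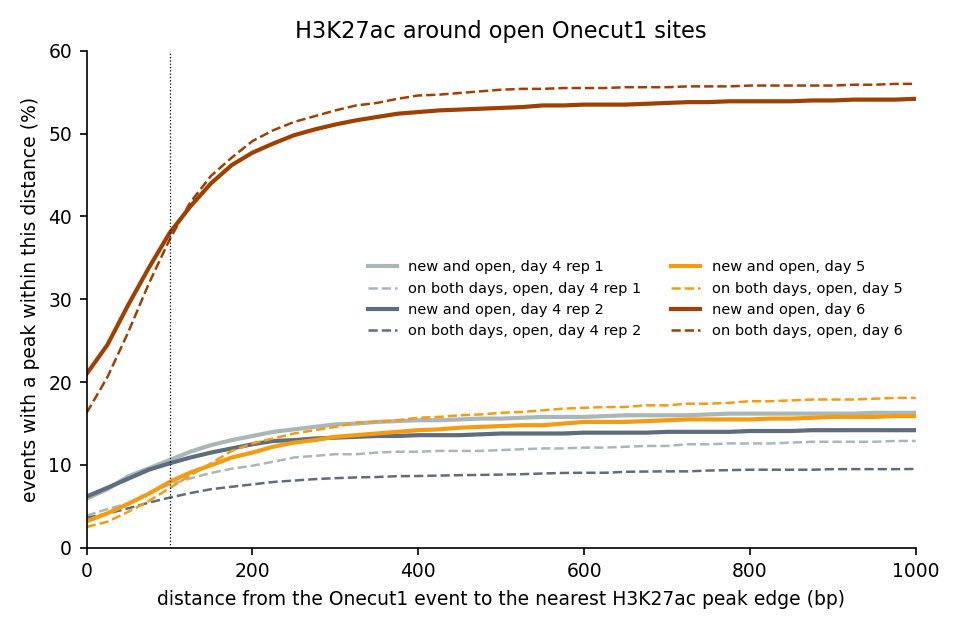
Share of Onecut1 events (vertical axis, percent) with an H3K27ac peak at or within a given distance (horizontal axis, bp), for new and open sites (solid) and open sites of both days (dashed), for each H3K27ac library. The dotted line marks 100 bp, where the new and open sites stood at 38.0% on day 6, 7.96% on day 5 and 10.6% and 10.2% in the 2 day 4 libraries.

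Sites with different histories of accessibility carried H3K27ac in different orders. Sites with no earlier ATAC had it at 2.34% in day 4 replicate 1, 2.38% on day 5 and 31.3% on day 6. Sites open on day 5 only had 3.56%, 5.76% and 46.2% in the same order. Sites open on days 2, 4 and 5 had the mark early as well: 38.0% in day 4 replicate 1, 23.2% on day 5 and 41.5% on day 6. Sites open on days 4 and 5 had 25.0%, 14.8% and 49.3%, the last being the highest day 6 share of these 4 histories. Day 4 replicate 2 gave 2.09%, 3.41%, 38.1% and 21.8% for these 4 histories.

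Among strong sites alone the order of the histories was not the same on day 6. In the strongest quartile of reads, day 6 H3K27ac lay at 36.7% of the 1342 sites with no earlier ATAC, 50.3% of the 920 open on day 5 only and 53.0% of the 281 open on days 2, 4 and 5. Sites open on day 5 only and on days 2, 4 and 5 had overlapping intervals there (47.0 to 53.6 and 47.0 to 59.0). Over all sites day 5 only had the higher share, with 46.2% (43.6 to 48.9) against 41.5% (38.1 to 44.9), and these intervals overlapped too. In the strongest quartile, day 5 H3K27ac lay at 2.53%, 5.76% and 32.0% of these histories, in the same order as over all sites. Of the 2395 sites with no earlier ATAC, 696 (29.1%, 27.2 to 30.9) had H3K27ac on day 6 and not on day 5, and 574 of the 1406 open on day 5 only did (40.8%, 38.2 to 43.4).

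The 5 strongest sites that had no earlier ATAC and H3K27ac on day 6 only show this group. The first, at chromosome 9 position 57953928, had 393.5 Onecut1 reads, lay inside a day 6 H3K27ac peak with the nearest day 5 peak at 137 bp, and had 76.1 day 5 p300 reads and 13.0 Isl1 reads in day 6 replicate 2. The second, at chromosome 15 position 92582945 with 340.0 reads, lay inside a day 6 peak, 55787 bp from one of day 5, and had neither p300 on day 6 or day 5 nor Isl1 on day 6. The next lay at chromosome 5 position 150358491 with 333.5 reads and 14.0 Isl1 reads in day 6 replicate 1, and at chromosome 19 position 15689962 with 326.1 reads and no p300 or day 6 Isl1 event. The fifth, at chromosome 8 position 120856245 with 319.4 reads, lay inside a day 6 peak, 170448 bp from one of day 5, and had 20 p300 reads on day 6 and no p300 event on day 5.

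**Figure D4:**
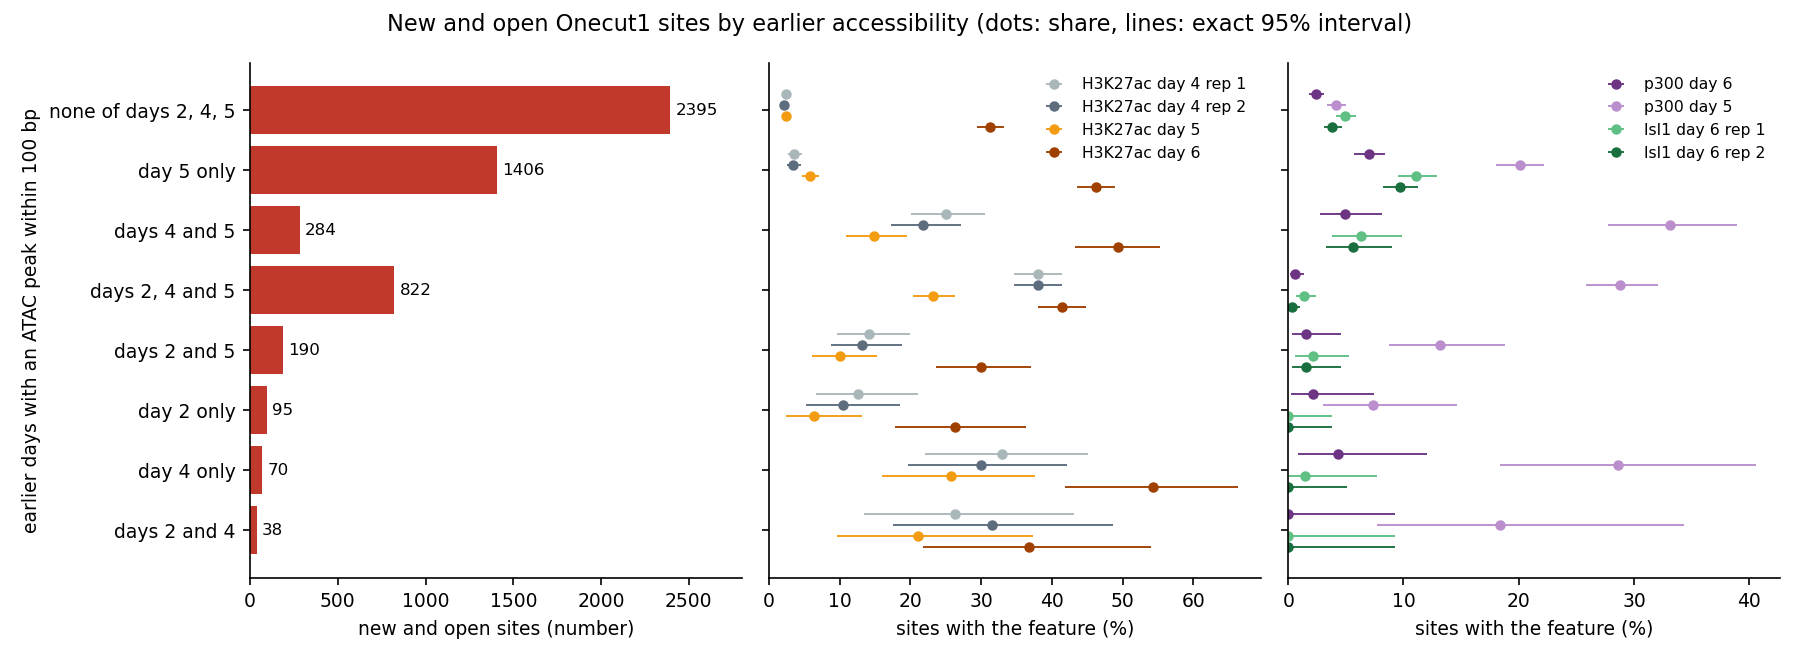
Number of new and open sites by earlier ATAC (left), and share of each group with H3K27ac (middle) or with p300 and Isl1 (right) within 100 bp, in percent, with exact 95% intervals. Day 6 H3K27ac was found in all groups, from 31.3% of sites with no earlier ATAC to 49.3% of those open on days 4 and 5 among the 4 groups of over 200 sites, while day 4 H3K27ac followed early ATAC.

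The coactivator p300 lay at few of the sites on day 6. A p300 event lay within 100 bp at 183 sites on day 6 (3.45%, 2.98 to 3.98) and at 771 sites on day 5 (14.5%, 13.6 to 15.5), with 75 sites in common. Over all day 6 Onecut1 events the shares were 1.19% on day 6 and 3.57% on day 5. The lists differ greatly in length, with 1337 events on day 6 and 19398 on day 5, and the order turns when they are made equal: the 1337 strongest day 5 events lay at 1.36% (1.06 to 1.71) of the sites. No fall in p300 can be read from these counts. Seen from the lists, 140 of the day 6 p300 events (10.5%) and 692 of those of day 5 (3.57%) lay at new and open sites. At any day 6 Onecut1 event lay 37.1% of the day 6 p300 events and 9.31% of those of day 5. The higher day 6 share was thus also found over all day 6 Onecut1 events.

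At open sites of both days p300 was more frequent than at new and open sites. It lay at 10.0% of them (9.13 to 11.0) on day 6 and 23.4% (22.1 to 24.7) on day 5. The difference remained among strong events: in the strongest quartile of reads, day 6 p300 lay at 5.18% of new and open sites and 11.1% of open sites of both days. Strength within the quartile was not matched. In quartile 3 the values were 1.98% and 2.04%, with overlapping intervals. Day 6 ATAC peaks without Onecut1 had day 6 p300 at 0.704% and day 5 p300 at 15.4%, and the day 5 value was close to the 14.5% of new and open sites.

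The p300 of the 2 days followed different histories. On day 6 it lay at 6.97% of sites open on day 5 only, 4.93% of those open on days 4 and 5, 2.42% of those with no earlier ATAC and 0.608% of those open on days 2, 4 and 5. On day 5 it lay at 20.1%, 33.1%, 4.13% and 28.8% of the same groups. With the 1337 strongest day 5 events only, an alternative chosen after seeing the data, the day 5 shares were 1.56%, 4.93%, 0.0418% and 3.77% (2.58 to 5.31). At this equal length, sites open on days 2, 4 and 5 had p300 at 0.608% (0.198 to 1.41) on day 6 and 3.77% on day 5, and sites open on day 5 only at 6.97% (5.69 to 8.43) on day 6 and 1.56% (0.983 to 2.36) on day 5. Where p300 was listed on day 6, its event was at a median of 37.0 bp from the Onecut1 event.

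The strongest site with day 6 p300 lay at chromosome 13 position 70648131, with 327.8 Onecut1 reads, 41.0 p300 reads on day 6 and 32.0 on day 5, and H3K27ac on day 6 only. At chromosome 8 position 49290433, with 324.8 Onecut1 reads, all 4 of the other day 6 maps were present: 30.0 p300 reads, 26.0 and 19.0 Isl1 reads in replicates 1 and 2, and an H3K27ac peak at 64 bp, with 52.0 p300 reads on day 5 and an ATAC peak on day 5 only. Next came chromosome 8 position 120856245, described above. The other 2 sites by this order lay at chromosome 11 position 69081323 (311.2 Onecut1 reads, 33.0 p300 reads on day 6 and 32.0 on day 5) and chromosome 7 position 103972716 (303.0 Onecut1 reads and 25.0 p300 reads on day 6). All 5 sites had H3K27ac on day 6 and not on day 5.

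Isl1 was found at a minority of the sites and more often on day 6 than on day 5. Events of the day 6 libraries lay within 100 bp at 309 sites (5.83%, 5.21 to 6.50) in replicate 1 and 250 (4.72%, 4.16 to 5.32) in replicate 2. In the day 5 libraries it was 82 sites (1.55%, 1.23 to 1.92) and 53 sites (1.00%, 0.750 to 1.31). Each day 6 library was above each day 5 library, although the lengths of the day 6 lists (1470 and 1560 events) lay between those of day 5 (2260 and 1079). Over all day 6 Onecut1 events the shares were 1.75% and 1.31% in the day 6 libraries and 0.676% and 0.408% in those of day 5. With 2 libraries against 2, no test was made.

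The 2 day 6 libraries overlapped only in part. Either of them had an event at 471 sites (8.89%, 8.13 to 9.69), against 2.51% of all events, and both at 88 sites (1.66%, 1.33 to 2.04), against 0.545%. Replicate 1, which shares its file name mark with Onecut1 day 6, was nearer to the Onecut1 event, with a median of 18 bp and 56.6% within 20 bp, than replicate 2 with 35.5 bp and 33.6%. The part of that mark in the Isl1 shares was not tested, and the share of replicate 2 alone is the 4.72% above. Seen from the Isl1 lists, 261 events of day 6 replicate 1 (17.8%) and 222 of replicate 2 (14.2%) lay at new and open sites, against 80 (3.54%) and 54 (5.00%) of the day 5 lists. The shares of these lists at any day 6 Onecut1 event were 53.7% and 40.1% for day 6 and 16.0% and 18.9% for day 5. The higher day 6 share was thus also found over all day 6 Onecut1 events.

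As with p300, open sites of both days held more Isl1. On day 6 it lay at 14.7% of these in replicate 1, 10.7% in replicate 2, and 20.1% in either (18.9 to 21.4). Among events of the strongest quartile, 13.8% of new and open sites and 22.0% of open sites of both days had day 6 Isl1 in either library. Strength within that quartile was not matched. In quartile 3 the shares were 4.23% (3.26 to 5.39) and 5.88% (3.77 to 8.7), and in quartile 2 they were 2.61% (1.5 to 4.2) and 6.35% (1.76 to 15.5). The intervals overlapped in both of these quartiles. Day 6 ATAC peaks without Onecut1 had day 6 Isl1 in either library at 1.52% and new sites that were not open at 0.292%. Within the new and open sites the share climbed with Onecut1 strength, from the weakest to the strongest quartile 0.521%, 2.61%, 4.23% and 13.8%. Day 6 p300 and H3K27ac climbed too, with 0.260%, 0.977%, 1.98% and 5.18% for p300 and 18.8%, 26.1%, 35.5% and 44.5% for H3K27ac. Day 5 H3K27ac, at 4.17%, 7.17%, 8.87% and 8.18%, did not keep climbing.

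**Figure D5:**
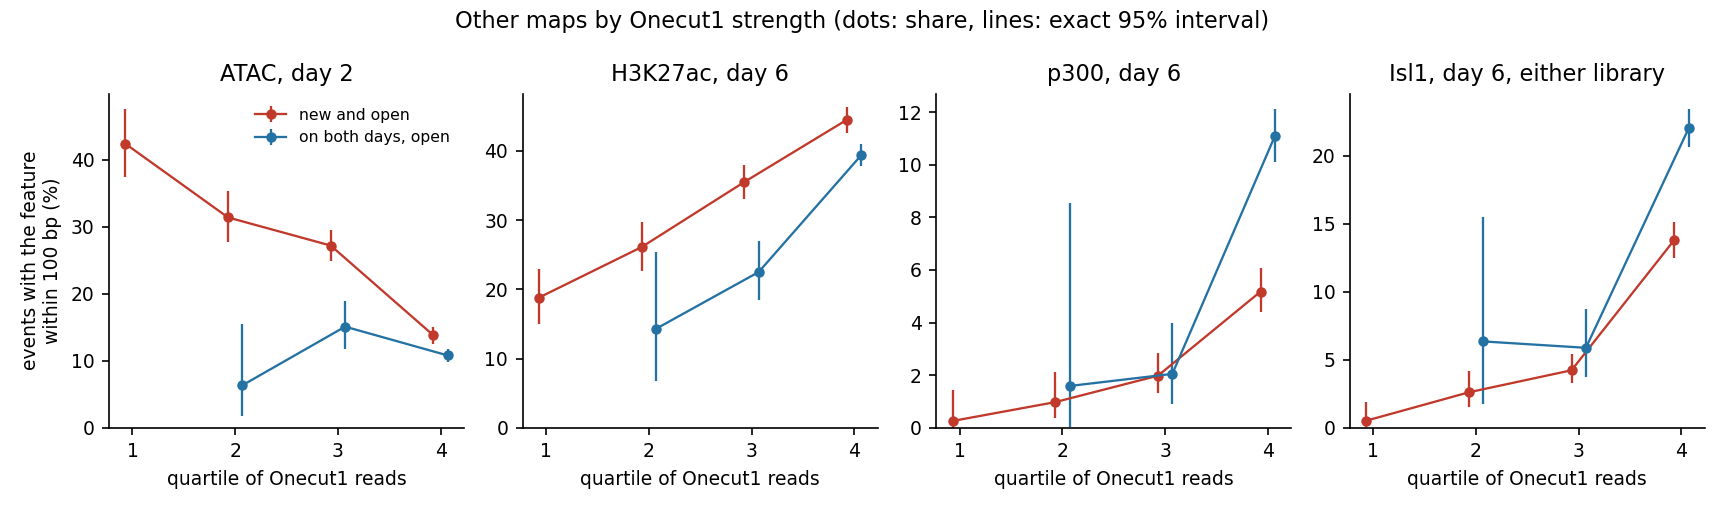
Share of events with ATAC on day 2, H3K27ac, p300 or Isl1 on day 6 within 100 bp (vertical axes, percent) by quartile of day 6 Onecut1 reads (horizontal axes, 1 weakest and 4 strongest, set over all day 6 events), for new and open sites and open sites of both days, with exact 95% intervals. The weakest quartile of sites of both days, with 15 events, is not drawn. At new and open sites day 2 ATAC is highest in the weakest quartile (42.4%) and Isl1 in the strongest (13.8%).

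Sites with Isl1 differed from those without it in several maps. Day 6 H3K27ac lay at 55.4% (50.8 to 60.0) of the 471 sites with day 6 Isl1 in either library and at 36.3% (34.9 to 37.7) of the 4829 without it. Day 6 p300 lay at 10.4% (7.80 to 13.5) with Isl1 and 2.77% (2.33 to 3.28) without. Day 2 ATAC lay at 3.82% (2.28 to 5.97) with Isl1 and 23.3% (22.2 to 24.6) without. Sites with Isl1 were also stronger in Onecut1, with a median of 78.4 reads against 29.0. Within the strongest quartile alone the shares were 57.0% with and 42.5% without Isl1 for day 6 H3K27ac, 12.3% and 4.05% for day 6 p300, and 4.60% and 15.2% for day 2 ATAC, so the differences were also there within that quartile.

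By history, day 6 Isl1 in either library lay at 17.0% (15.1 to 19.1) of sites open on day 5 only, 9.86% of those open on days 4 and 5, 7.72% of those with no earlier ATAC and 1.70% of those open on days 2, 4 and 5. Each library alone kept this order, with 11.1%, 6.34%, 4.97% and 1.34% in replicate 1 and 9.67%, 5.63%, 3.84% and 0.365% in replicate 2. Of the 471 sites, 46 (9.77%) already had Isl1 on day 5 in either library, against 59 of the 4829 others (1.22%). The 183 sites with day 6 p300 had day 6 Isl1 at 26.8% (20.5 to 33.8) and day 6 H3K27ac at 63.4% (56.0 to 70.4), against 8.25% and 37.1% of the 5117 sites without p300.

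The strongest sites with Isl1 in both day 6 libraries differed in their chromatin. The first, at chromosome 8 position 15271926, had 371.0 Onecut1 reads, 23.2 and 16.0 Isl1 reads in replicates 1 and 2, and a day 6 H3K27ac peak at 99 bp, with none of day 5 within 301680 bp. The second, at chromosome 2 position 110434923, had 369.7 Onecut1 reads and 57.0 and 65.0 Isl1 reads, and its nearest H3K27ac peaks lay 414054 bp away on day 6 and 49924 bp away on day 5. Strong Isl1 at a strong new and open site was thus not always accompanied by H3K27ac. The third, at chromosome 17 position 9874255, had 340.1 Onecut1 reads, 87.0 and 37.4 Isl1 reads and 231.0 p300 reads on day 5, with a day 5 Onecut1 event 194 bp away. The fourth was the site at chromosome 8 position 49290433 described with p300. The fifth, at chromosome 7 position 138766709 with 317.8 Onecut1 reads and 77.9 and 68.8 Isl1 reads, had no earlier ATAC, and a day 5 Onecut1 event lay 182 bp away. At the sites on chromosomes 2, 17 and 7 the control had 23.6 to 44.1 reads, and the fold over control was 8.4 to 13.5.

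The factors mapped on day 4 were rare at the new and open sites. The library labelled Lhx3 had an event within 100 bp at 39 sites (0.736%, 0.524 to 1.00), against 0.313% of all day 6 Onecut1 events, and Ngn2, a proneural factor that starts neuronal differentiation, at 56 sites (1.06%, 0.799 to 1.37), against 0.243%. Open sites of both days had 2.11% (1.69 to 2.59) and 0.993% (0.714 to 1.35) for these maps. Day 6 ATAC peaks without Onecut1 had 0.416% and 1.03%, so the Ngn2 share was close to that of other open chromatin. The lists were short, with 1629 entries for the library labelled Lhx3 and 3184 for Ngn2. Ngn2 peaks lay at 7.75% of the sites open on days 4 and 5 and 3.16% of those open on days 2, 4 and 5, and at 1 of the 2395 sites with no earlier ATAC.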

How the data were processed

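The sites, the lists and the comparisons were chosen with earlier results of these data known. Tools listed in the submitters' processing notes are STAR, MACS, Bowtie 0.12.7 and HOMER 4.7.2, without roles, and the build is mm9. The names of the event lists contain GPS, but none of the sources used here says outright which program made them. Per the file headers, each event list of Onecut1, Isl1, p300 and the library labelled Lhx3 gives the signal of an event as precipitated and scaled control reads, their fold ratio and −log10 q-values and p-values; the lowest −log10 q of the day 6 Onecut1 list was 2.00. The authors deposited H3K27ac, ATAC, Ngn2 and DNase peaks with a score per peak, used only to rank peaks within 1 list, and RNA as FPKM for 37450 gene rows. What the columns of the ATAC lists beyond position mean is not stated in the files.

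Distances run from an event's position to the nearest event or peak edge, and 0 bp means inside the peak. A map was called present within 100 bp. For the class of day 6 ATAC peaks with no Onecut1 event within 100 bp, the peak's centre was used. The distance code was tested on simulated lists with planted sites. Shares carry exact 95% intervals (Python 3.11.15, numpy 2.4.6, pandas 2.3.3, scipy 1.17.1, figures with matplotlib 3.10.9). No p-value was computed, since sites of 1 library are not replicates. Sites were named by reads: the 8 strongest, and the 5 strongest with day 6 p300, with Isl1 in both day 6 libraries, and with H3K27ac on day 6 only and no earlier ATAC, leaving out chromosome 18. Genes near the sites and site sequences are not reported, because no mm9 annotation or genome was used here. Of the 26 samples, 23 were used, and the IgG and input controls were not.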

Additional observations from a re-analysis of the deposited data

How the results depend on the processing

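Of 92 alternative values, 50 were counted as the same and 42 as moved. A share counted as the same where it stayed within the 95% interval of the reported share. The number of sites was judged loosely. Against 5300 sites, 3860 (−log10 q of 5 or more) and 3601 (strongest day 6 events, as many as on day 5) still counted as the same. None changed which day had more H3K27ac or put the share with earlier ATAC below 47.1%. Counting as bound on day 5 any event within 200 or 500 bp moved no share beyond its interval, and neither did keeping events of at least 5-fold over control, which was chosen after seeing the data. Requiring the event inside its ATAC peak moved only the number of sites, to 2876.

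With events of −log10 q of 5 or more, any earlier ATAC was 52.9%, day 6 H3K27ac 41.7%, H3K27ac on day 6 only 33.7%, day 6 p300 4.33% and Isl1 in either library 11.0%. With the strongest day 6 events, as many as on day 5, they were 53.0%, 42.7%, 34.5%, 4.58% and 11.9%, and Isl1 in both libraries 2.28%. With the 50% highest-scoring peaks of each ATAC list, 2432 sites remained, with day 5 ATAC at 52.8%, any earlier ATAC 57.1%, H3K27ac 50.7% on day 6, 13.2% on day 5 and 37.7% on day 6 only, p300 4.85%, and Isl1 12.9% in either library and 2.63% in both. With other maps within 500 bp these shares were 56.9%, 60.5%, 53.1%, 14.7%, 39.2%, 4.58%, 11.0% and 2.36%, and within 50 bp 42.3%, 47.1%, 29.3%, 5.30%, 24.3%, 2.13%, 6.75% and 1.08%. A narrower or wider window takes in fewer or more entries by itself. The cause of the other moves was not tested. Counting sites within 100 bp of each other as 1 gave Isl1 in either library at 8.03%.

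With 1 of the day 6 Isl1 libraries left out, Isl1 lay at 4.72% (without replicate 1) to 5.83% (without replicate 2) of the sites, against 8.89% with both. Taken as the ratio of the larger to the smaller share, the first of these is the largest move of any share here. Day 5 H3K27ac within 500 bp follows it (14.7% against 7.96%). Leaving one out leaves no class of both libraries. The highest-scoring day 6 H3K27ac peaks, as many as on day 5, chosen after seeing the data, gave 29.8% on day 6 and 22.5% on day 6 only. No paired analysis was possible because the results come from no test. FPKM were given as deposited, so no pseudocount was tried. Depth per library is unknown, and a site absent from a list may have lacked reads there.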

Other observations

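The spacing and the chromosomes of the sites were looked at after the values above were seen. Another new and open site lay within 100 bp of 1001 sites (18.9%), within 1000 bp of 1309 (24.7%) and within 10000 bp of 1534 (28.9%). Sites chained at gaps of at most 10 kb gave 723 clusters of at least 2 sites, holding 1534 sites, and 3766 single sites, and no cluster held 5 or more. Spacing over all day 6 Onecut1 events is not given here, so whether this closeness is particular to these sites was not tested. The 5300 sites had 4668 nearest ATAC peaks among them, of which 592 were nearest to at least 2 sites.

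Outside chromosome 18, the cluster of 4 sites with the most reads lay on chromosome 14 from 55697559 to 55713639, with 861.2 reads in all and day 6 H3K27ac at 3 of its sites. A tighter one lay on chromosome 13 from 70648086 to 70648172, where 4 events with 542.0 reads in all shared ATAC on an earlier day, and each had day 6 p300 and day 6 H3K27ac and no H3K27ac on day 5. Its strongest event is the site with most Onecut1 reads among those with day 6 p300. Whether the 4 events are 1 bound region was not tested. On chromosome 13 from 109759544 to 109760670, 4 sites had day 6 H3K27ac and 3 of them day 6 Isl1. On chromosome 19 from 50120341 to 50120574, 4 sites with 500.0 reads in all had earlier ATAC and no H3K27ac on day 6 or day 5.

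Of the day 6 Onecut1 events of a chromosome, the share that was new and open ran from 5.61% on chromosome 19 to 10.0% on chromosome X among the named chromosomes, with 8.35% over all events. Of the 15 events on other sequences, 4 were new and open.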
